A study of Homo sapiens with 6 samples.

Results

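The expression of genes that move glutamine and glutamate across membranes or convert them into each other were followed in glioblastoma cells with and without knock-down of the long non-coding RNA HOTAIRM1. The genes are SLC1A1, SLC1A3, SLC1A5, SLC38A1, GLUL, GLUD1, GOT1 and GOT2. They were chosen by symbol for their known roles, not by their values, and they are 8 of the 59074 genes listed in the deposited table. RNA was sequenced from 3 established human glioblastoma cell lines, LN-229 (named LNT229 in the sample titles), T98G and U251. In each cell line, 1 library came from cells transfected with non-target siPOOLs (siControl) and 1 from cells transfected with siPOOLs against HOTAIRM1 (siHOTAIRM1). A siPOOL is a pool of siRNAs, the knock-down was transient, and all cells were harvested 72 h after transfection. With 6 libraries in all and 1 per cell line and condition, the 3 cell lines were the replicates of the knock-down comparison and no test could be made within a cell line.

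Glutamine is the main carrier of nitrogen between cells, and many tumor cells take it up in large amounts. Inside the cell glutamine gives up its amide nitrogen to become glutamate, glutamine synthetase turns glutamate back into glutamine, and glutamate dehydrogenase and the aspartate aminotransferases pass the carbon of glutamate into the tricarboxylic acid cycle. In the brain, astrocytes clear glutamate released by neurons with sodium-driven transporters, convert it to glutamine and hand the glutamine back to neurons.

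Levels are in CPM (the reads of a gene scaled to the size of its library), and from the worth of 1 read the libraries held 52.3 to 104 M reads. In these libraries, 3 reads amounted to 0.0289 to 0.0574 CPM. The listed genes made up 42.9 to 67.2% of the CPM scale, and between the libraries of a cell line this sum was higher by 0.05 (log2) after knock-down in LN-229, lower in T98G (-0.23) and lower in U251 (-0.27). HOTAIRM1 itself went from 1.99 to 0.952 CPM in LN-229, from 3.49 to 2.15 CPM in T98G and from 1.27 to 0.623 CPM in U251 (log2 change -0.54 over the cell lines, limma, Benjamini-Hochberg adjusted p = 0.0146). It did not pass the threshold with each library centred on the median of its tested genes (adjusted p = 0.170, limma), with each library rescaled to the sum of its listed genes (adjusted p = 0.229, limma), with no block, with no filter, with a paired statistic of each gene alone, or without LN-229 or T98G. Of 8 astroglial markers, 6 reached 1 CPM in at least 1 library, while AQP4 and ALDH1L1 stayed below it in all 6. The summed level of this list, which also holds NES and VIM, was 499 to 2294 CPM in siControl and 366 to 1991 CPM in siHOTAIRM1 libraries. The sum does not show which of its markers carries it. PTPRC and AIF1, defining markers of leukocytes and microglia, were under 1 CPM in all libraries (summed level with CD68 0.785 to 7.89 CPM in siControl and 0.334 to 2.77 CPM in siHOTAIRM1). The 3 neuronal markers summed to 8.86 to 25.5 CPM in siControl and 6.44 to 20.4 CPM in siHOTAIRM1, with RBFOX3 under 1 CPM in all libraries. Oligodendrocyte markers summed to 0.507 to 69.9 CPM in siControl and 0.399 to 74.6 CPM in siHOTAIRM1 (MOG under 1 CPM throughout), and endothelial markers to 0.465 to 3.08 and 0.407 to 1.55 CPM (PECAM1 and VWF under 1 CPM throughout). Of these markers, SYT1 (-0.83, adjusted p = 0.00138, limma) and CD68 (-0.62, adjusted p = 0.0223, limma) fell after knock-down with the values as deposited, and the part of these differences in the results was not tested. Whether these 2 calls held under other settings was not examined. Over all genes, 286 passed the threshold as deposited, 41 with centring, 19 with rescaling and 0 without T98G.

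The 4 membrane transporters and 4 enzymes lie on 7 chromosomes (hg38, GENCODE v44), and all are protein-coding. SLC1A1 lies on chromosome 9 (4490468 to 4587469, plus strand), SLC1A3 on chromosome 5 (36596588 to 36688334, plus strand), SLC1A5 on chromosome 19 (46774883 to 46788594, minus strand) and SLC38A1 on chromosome 12 (46183063 to 46270017, minus strand). GLUL lies on chromosome 1 (182378098 to 182392206), GLUD1 and GOT1 on chromosome 10 (87050202 to 87094843 and 99396870 to 99430624) and GOT2 on chromosome 16 (58707131 to 58734342), all on the minus strand.

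In 4 of the 8 genes, a RefSeq promoter window (GRCh38.p14, 250 bases before to 50 after a transcript start) held the letters TGATGNAA on either strand. The windows of GOT1 and SLC1A3 with a match lie upstream of the gene, and those of SLC1A5 and SLC38A1 lie within the gene, at alternative transcript starts. These letters are the core of the C/EBP-ATF response element, to which ATF4, a transcription factor activated by amino acid shortage, binds with a C/EBP partner. The stretches of 30 bases around the matches are shown because amino acid transport and synthesis genes are known for this element. Capitals mark the match.
GOT1, chr10:99430804-99430833, minus strand, match on the opposite strand: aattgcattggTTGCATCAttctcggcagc
SLC1A3, chr5:36596357-36596386, plus strand: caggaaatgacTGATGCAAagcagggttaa
SLC1A5, chr19:46784893-46784922, minus strand: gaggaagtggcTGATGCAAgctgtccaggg
SLC38A1, chr12:46266502-46266531, minus strand: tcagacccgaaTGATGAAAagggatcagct
The first base of the match lay 198 bases upstream of the transcript start in GOT1, 220 in SLC1A3, 97 in SLC1A5 and 4 in SLC38A1. GOT1 has 1 window, and the matches of SLC1A3, SLC1A5 and SLC38A1 were in 1 of their 3, 3 and 2 windows. Over all promoter windows of the same length, 1270 of 35116 (3.62%) held the letters, or 1217 of 27305 genes (4.46%). The motif was chosen after the sequences had been seen, and a match is a run of letters in a window, not a shown binding site.

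With the values as deposited, the largest difference between 2 cell lines exceeded the mean change after knock-down in each of the 8 genes. It did so by the least in SLC1A1, with 0.51 beside -0.45 on the log2 scale. With rescaled libraries it did not in SLC1A1, where they were 0.21 and -0.35. Opposite changes cancel in a mean over the cell lines, so the comparison is tilted toward the largest difference. Within T98G, SLC1A1 changed by -0.62, more than its largest difference between cell lines. The plot of the genes over the 6 libraries shows the levels. Compared per kilobase of the canonical transcript, the neutral amino acid transporter SLC1A5 stood highest in siControl cells of LN-229 (25.9 CPM per kb) and T98G (39.3 CPM per kb). In U251, the mitochondrial aspartate aminotransferase GOT2 stood highest (51.8 CPM per kb), followed by SLC1A5 (31.5 CPM per kb). The lowest per kilobase was SLC1A3 in LN-229 (1.05 CPM per kb), SLC1A1 in T98G (2.23 CPM per kb) and GLUL in U251 (1.56 CPM per kb). In bulk RNA, fewer cells that express a gene and less of its RNA per cell cannot be told apart.

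**Figure D1:**
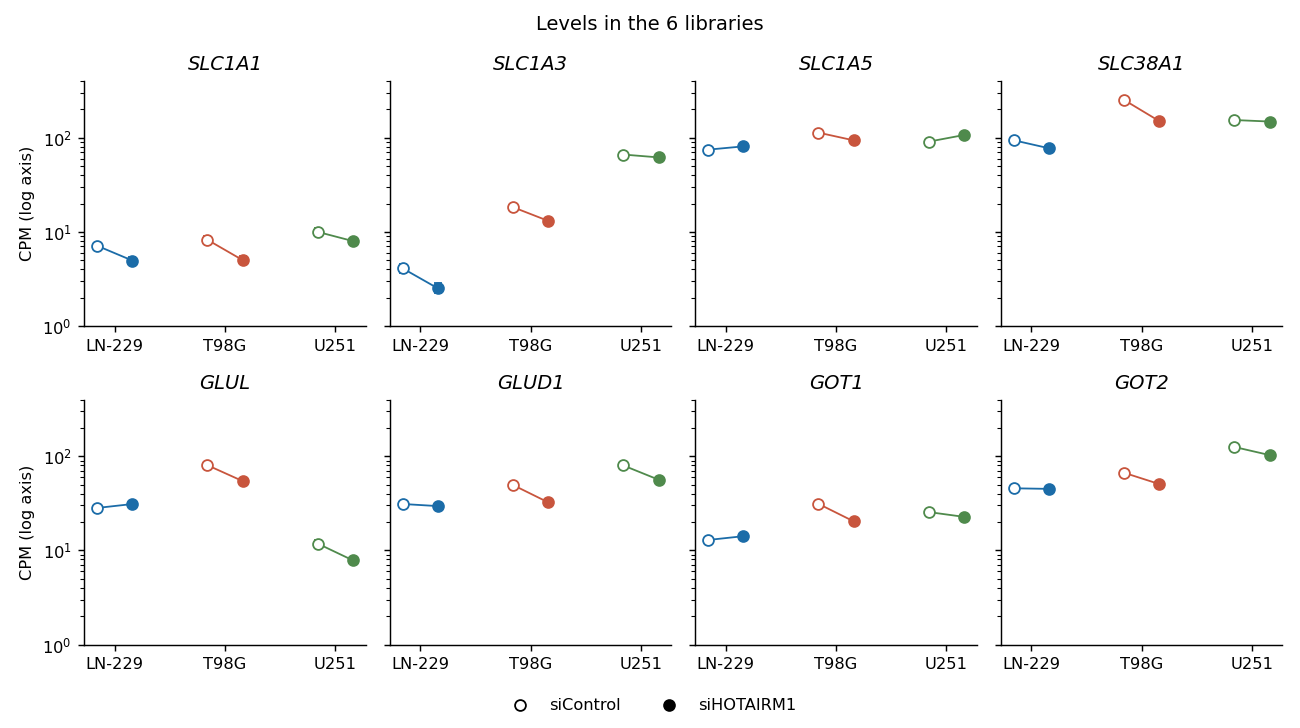
Level of each of the 8 genes in CPM (log axis, the same range in every panel) in the siControl (open) and siHOTAIRM1 (filled) library of LN-229, T98G and U251; each point is 1 library, lines join the libraries of a cell line, and bars (mostly smaller than the points) are 95% Wilson intervals of the reads. SLC1A3 climbs from 4.10 CPM in LN-229 to 66.3 CPM in U251 siControl cells, and GLUL is lowest in U251 (11.8 CPM).

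SLC1A3 encodes EAAT1 (GLAST), the glutamate transporter of astrocytes and radial glia. It was at 4.10 CPM in siControl and 2.51 CPM in siHOTAIRM1 cells of LN-229, at 18.3 and 13.1 CPM in T98G, and at 66.3 and 61.8 CPM in U251. U251 stood highest and LN-229 lowest, whichever siPOOL they had received. U251 was above LN-229 by 3.94 on the log2(CPM + 1) scale (15.4-fold, adjusted p = 2.11e-20, limma with Benjamini-Hochberg adjustment over 14294 genes) and above T98G by 1.98 (adjusted p = 5.70e-12), and T98G was above LN-229 by 1.96 (adjusted p = 6.82e-12). These contrasts between cell lines rest on 2 libraries per line that differ in siPOOL, with no replicate culture of the same treatment named in the labels. In limma, the spread behind the p-values came mostly from the trend over all genes (32.5 prior and 2 residual degrees of freedom). It does not measure the spread between replicate cultures.

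SLC1A1 encodes EAAT3, a glutamate and cysteine transporter of neurons and epithelia. It was at 7.13 and 4.95 CPM in LN-229, 8.24 and 5.00 CPM in T98G, and 9.99 and 7.97 CPM in U251 (siControl and siHOTAIRM1). Its siControl levels spanned a much narrower range than those of SLC1A3. U251 was above LN-229 by 0.51 (adjusted p = 0.0122, limma) and above T98G by 0.42 (adjusted p = 0.0393, limma), and T98G and LN-229 differed by 0.10 (95% interval -0.26 to 0.46). The difference from T98G did not pass with centring (0.20, adjusted p = 0.216, limma) or rescaling (0.067, adjusted p = 0.766, limma), nor did that from LN-229 with rescaling (0.21, adjusted p = 0.327, limma).

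As shares of the 5 EAAT genes (SLC1A1, SLC1A2, SLC1A3, SLC1A6 and SLC1A7) per kilobase, SLC1A1 made up 64.6% in siControl cells of LN-229, 31.4% in T98G and 13.8% in U251. SLC1A3 made up 35.1%, 65.7% and 86.2% in the same order. Thus the leading EAAT transcript was SLC1A1 in LN-229 and SLC1A3 in T98G and U251, and the same gene led after knock-down (SLC1A1 67.4% in LN-229, SLC1A3 68.4% in T98G and 87.9% in U251). SLC1A2, the EAAT2 of mature astrocytes, was at most 0.509 CPM in any library, and SLC1A6, the EAAT of cerebellar Purkinje cells, was listed at the added constant of 0.0001 CPM in all 6.

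SLC1A5 encodes ASCT2, which exchanges glutamine for other neutral amino acids. It was at 74.7 and 80.9 CPM in LN-229, 113 and 93.7 CPM in T98G, and 90.9 and 107 CPM in U251. None of its contrasts between cell lines passed the threshold (0.40, 0.34 and -0.06 for T98G over LN-229, U251 over LN-229 and U251 over T98G, adjusted p = 0.0682, 0.118 and 0.787, limma) with the values as deposited. T98G against LN-229 passed with centring (0.49, adjusted p = 0.0121, limma) and rescaling (0.45, adjusted p = 0.0497, limma), and U251 against T98G with rescaling (-0.46, adjusted p = 0.0387, limma). Its paralog SLC1A4 (ASCT1), a carrier of serine and alanine that was singled out after its values were seen, was at 160 and 145 CPM in LN-229, 12.2 and 5.98 CPM in T98G, and 7.23 and 7.01 CPM in U251. SLC1A4 was lower in T98G and U251 than in LN-229, by differences of -4.00 and -4.24. Since it was picked by its values, no test between cell lines is given.

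SLC38A1 (SNAT1) brings glutamine in together with sodium. It was at 94.0 and 77.3 CPM in LN-229, 252 and 150.1 CPM in T98G, and 154 and 149 CPM in U251. LN-229 stood lowest: T98G was above it by 1.18 (adjusted p = 4.99e-06, limma) and U251 by 0.82 (adjusted p = 0.000614, limma), and U251 and T98G differed by -0.36 (95% interval -0.77 to 0.04). With rescaling, U251 against LN-229 did not pass (0.46, adjusted p = 0.0626, limma), and U251 against T98G passed with either scaling (-0.57 centred and -0.76 rescaled).

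GLUL encodes glutamine synthetase, the enzyme that marks astrocytes in the brain. It was at 28.2 and 31.1 CPM in LN-229, 80.2 and 54.4 CPM in T98G, and 11.8 and 7.82 CPM in U251. T98G stood highest and U251 lowest with either siPOOL. U251 was below T98G by a difference of -2.66 (6.32-fold, adjusted p = 5.62e-15, limma) and below LN-229 by a difference of -1.53 (adjusted p = 6.59e-09, limma), and T98G was above LN-229 by 1.13 (adjusted p = 2.50e-06, limma). U251 thus held the highest levels of SLC1A3 and the lowest of GLUL.

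GLUD1 encodes the mitochondrial glutamate dehydrogenase. It was at 31.1 and 29.5 CPM in LN-229, 49.5 and 32.3 CPM in T98G, and 79.8 and 56.3 CPM in U251. U251 was above LN-229 by 1.12 (adjusted p = 1.77e-06, limma) and above T98G by 0.73 (adjusted p = 0.000625, limma), and T98G and LN-229 differed by 0.39 (adjusted p = 0.0637, limma). With rescaling, U251 against T98G did not pass (0.34, adjusted p = 0.0668, limma), and T98G against LN-229 passed with either scaling (0.47 centred and 0.44 rescaled). GLUD2, an intronless copy of GLUD1 with near-identical sequence, was listed at 28.8 to 30.6% of the level of GLUD1 in every library. Reads of these genes cannot be told apart with certainty, and with GLUD1 and its 6 relatives summed the log2 change after knock-down came to -0.06 for LN-229, -0.59 for T98G and -0.49 for U251.

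GOT1 and GOT2 encode the cytosolic and the mitochondrial aspartate aminotransferase, which together drive the malate-aspartate shuttle. GOT1 was at 12.9 and 14.1 CPM in LN-229, 31.2 and 20.3 CPM in T98G, and 25.5 and 22.7 CPM in U251. GOT2 was at 45.6 and 45.0 CPM in LN-229, 66.7 and 50.6 CPM in T98G, and 125 and 103 CPM in U251. GOT1 was lower in LN-229 than in T98G (0.85, adjusted p = 0.000156, limma) and U251 (0.79, adjusted p = 0.000339, limma), whereas GOT2 was higher in U251 than in LN-229 (1.31, adjusted p = 1.16e-07, limma) and T98G (0.95, adjusted p = 2.28e-05, limma). In count, 4 of the 8 genes passed the threshold for T98G against LN-229 (54.9% of all genes tested did), 7 for U251 against LN-229 (60.6%) and 5 for U251 against T98G (64.2%). With each library centred on its median, the first of these counts became 7, and with libraries rescaled to their listed genes the 3 counts became 7, 5 and 6. The shares of all genes under these scalings were not counted, so these counts are not a result about the 8 genes.

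After HOTAIRM1 knock-down, none of the 8 genes passed the threshold over the 3 cell lines, while 7 of them had a log2 change below 0. Of all 14294 genes tested (those averaging 1 CPM or more, a filter that all 8 passed), 286 (2.0%) passed, and 63.8% had a change below 0. The median log2 change was -0.34 over the 8 genes and -0.07 over all genes. At an unadjusted p under 0.05, limma listed 5 of the 8 (SLC1A1, SLC1A3, SLC38A1, GLUL and GLUD1), against 18.3% of all genes. At that level, 3 of the 8 were listed with median centring, 1 with rescaling, 1 by a paired statistic of each gene alone, and 0 with no block or without T98G. Over all genes, 2609 of 14294 were listed with centring and 2348 of 15993 with rescaling. The paired statistic listed 896 of 14294 and the fit with no block 29 of 14294. Without T98G, the number of genes past the threshold in limma went from 286 to 0 (1206 at an unadjusted p under 0.05).

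SLC1A1 came closest to the threshold, with a log2 change of -0.45 (standard error 0.144, 95% interval -0.75 to -0.16, adjusted p = 0.0842, limma). It was lower in 3 of 3 cell lines, by 30.5% in LN-229 (95% interval of counting error 21.9 to 38.1%), 39.3% in T98G (30.7 to 46.7%) and 20.2% in U251 (10.9 to 28.5%). Counting intervals do not cover the spread between cultures. With the filter raised to 5 CPM, SLC1A1 passed the threshold (adjusted p = 0.0398, limma), and its adjusted p was 0.0563 or more in the other alternatives.

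**Figure D2:**
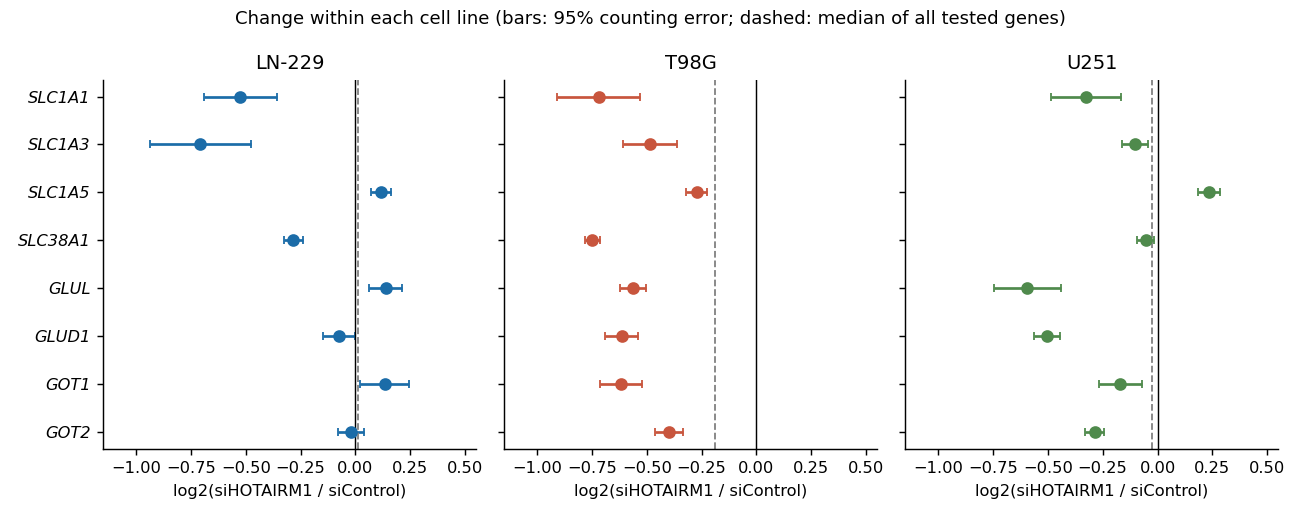
Log2 ratio of CPM, siHOTAIRM1 over siControl, of each gene within LN-229, T98G and U251; points are the ratio of 2 libraries without a pseudocount, bars are 95% intervals of counting error, and the dashed line is the median change of all tested genes on the log2(CPM + 1) scale (0.01, -0.19 and -0.03). All 8 genes lie below 0 in T98G, and GLUL, GOT1 and SLC1A5 lie above 0 in LN-229.

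GLUD1 had a log2 change of -0.39 (standard error 0.146, 95% interval -0.69 to -0.09, adjusted p = 0.143, limma), SLC1A3 of -0.36 (0.144, -0.66 to -0.07, adjusted p = 0.166, limma) and SLC38A1 of -0.36 (0.163, -0.69 to -0.03, adjusted p = 0.232, limma). These 3 genes were each lower in 3 of 3 cell lines, though by unequal amounts. SLC1A3 was lower by 38.8% for LN-229, 28.6% for T98G and 6.78% for U251. SLC38A1 was lower by 17.8% for LN-229, 40.5% for T98G and 3.63% for U251, and GLUD1 by 5.06%, 34.7% and 29.4% in the same order. SLC38A1 in U251 turned to a log2 change of 0.02 with each library centred on its median, and both it (0.21) and SLC1A3 (0.16) turned to a change above 0 in U251 when libraries were rescaled to their listed genes.

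GLUL had a log2 change of -0.32 (95% interval -0.62 to -0.01, adjusted p = 0.249, limma) made of unlike parts: it was 10.1% higher in LN-229, 32.2% lower in T98G and 33.7% lower in U251. GOT1 was 9.69% higher in LN-229, 34.9% lower in T98G and 11.1% lower in U251 (log2 change -0.21, 95% interval -0.51 to 0.09, adjusted p = 0.459, limma). GOT2 was lower by 1.42% in LN-229, where the counting interval included 0, by 24.2% in T98G and by 18.1% in U251 (log2 change -0.23, 95% interval -0.53 to 0.07, adjusted p = 0.405, limma). SLC1A5 was 8.36% higher in LN-229, 17.2% lower in T98G and 17.6% higher in U251. Its log2 change over the cell lines was 0.03 (95% interval -0.29 to 0.34, adjusted p = 0.955, limma), and it was below 0 without LN-229 (-0.02) or without U251 (-0.08).

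Within single cell lines, the 8 genes were lower than the typical gene in T98G. All 8 were lower there at all, as were 79.3% of all genes, and 5 of them (SLC38A1, SLC1A1, GLUD1, GOT1 and GLUL) by at least 0.5 on the log2 scale, a size reached by 8.26% of all genes. Their median in T98G was -0.57 against -0.19 over all genes. With other scalings, only SLC38A1 stayed past 0.5 in T98G (-0.55 centred, -0.52 rescaled). There SLC1A1 came to -0.43 and -0.46, GLUD1 to -0.40 and -0.38, GOT1 to -0.40 and -0.38, and GLUL to -0.36 and -0.33. The share of all genes past 0.5 under these scalings was not counted. In LN-229, 5 of the 8 were lower (46.3% of all genes) and 1, SLC1A3, by at least 0.5 (0.993%), with a median of -0.05. In U251, 7 of the 8 were lower (53.2%) and 1, GLUL, by at least 0.5 (11.9%), with a median of -0.22. GLUL in U251 came to -0.46 with centring and -0.31 with rescaling, while SLC1A1 in LN-229 reached -0.53 with rescaling. In all 3 cell lines, 5 of the 8 were lower, compared with 28.1% of all genes, and 0 of the 8 were higher by 0.5 or more in LN-229, T98G or U251 (1.47%, 0.644% and 6.56% of all genes). With 1 library per condition, these counts describe the libraries and have no test.

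**Figure D3:**
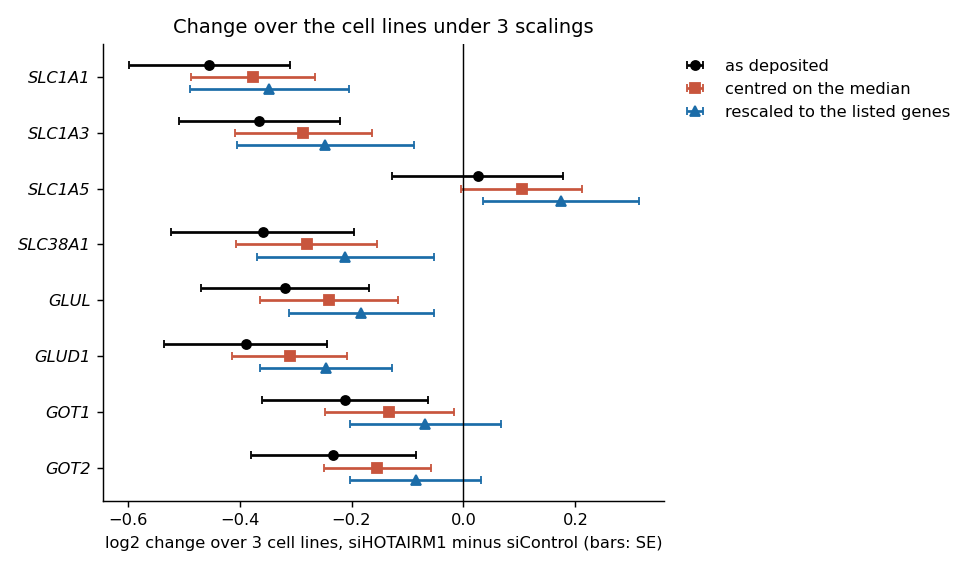
Log2 change over the 3 cell lines (siHOTAIRM1 minus siControl, limma) of each gene with the CPM as deposited (circles), with each library centred on the median of the tested genes (squares) and with each library rescaled so that its listed genes make up the whole CPM scale (triangles); bars are standard errors. The estimates move toward 0 or above in this order, from -0.45 to -0.35 in SLC1A1, and the sign of each stays the same.

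The scaling of the libraries moved the changes of the 8 genes upward. The median change of all genes was -0.07 with the values as deposited, 0.01 after centring and 0.06 after rescaling to the listed genes, and the median of the 8 genes was -0.34, -0.26 and -0.20 in the same order. SLC1A1 went from -0.45 to -0.38 and -0.35, and GOT1 from -0.21 to -0.13 and -0.07. Within LN-229 alone, both scalings moved the changes of the 8 genes downward, as in SLC1A3 from -0.54 to -0.58 centred and -0.66 rescaled.

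Ratios of 2 genes within a library do not depend on the scaling. The pairs were picked after the values had been seen, and the ratios are of CPM without regard to transcript length, so they are compared only between libraries. The ratio of SLC38A1 to SLC1A5, both glutamine transporters, was lower after knock-down in 3 of 3 cell lines, going from 1.26 to 0.955 in LN-229, from 2.23 to 1.60 in T98G and from 1.70 to 1.39 in U251. The log2 differences were -0.40 (95% counting interval -0.46 to -0.33), -0.48 (-0.53 to -0.42) and -0.29 (-0.35 to -0.22). The ratio of GLUL to GLUD1, which sets the enzyme that turns glutamate into glutamine beside the one that deaminates glutamate, went from 0.907 to 1.05 in LN-229, from 1.62 to 1.68 in T98G and from 0.148 to 0.139 in U251. Its log2 difference was 0.21 in LN-229 (0.11 to 0.32), while in T98G (0.05, -0.04 to 0.15) and U251 (-0.09, -0.25 to 0.07) the counting interval included 0.

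**Figure D4:**
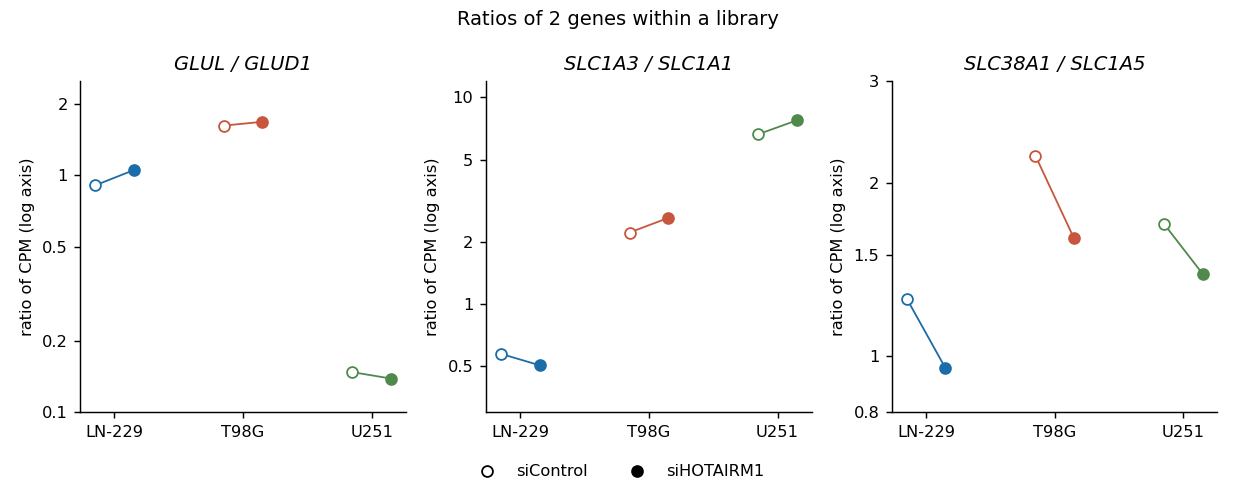
Ratio of CPM of 2 genes within each library (log axis) for GLUL over GLUD1, SLC1A3 over SLC1A1 and SLC38A1 over SLC1A5 in siControl (open) and siHOTAIRM1 (filled) cells of the 3 lines; each point is 1 library. The ratio of SLC38A1 to SLC1A5 is lower after knock-down in each line, and the ratio of SLC1A3 to SLC1A1 climbs from 0.576 in LN-229 to 6.63 in U251 siControl cells.

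Across the 6 libraries, GLUD1 ran closest to its copy GLUD2 (Pearson r = 0.998), SLC1A1 to RPL21P119 (0.992) and FAM73A (0.988), SLC1A3 to PLSCR1 (0.997) and COG1 (0.997), and SLC1A5 to COX15 (0.979) and GPBP1L1 (0.974). SLC38A1 ran closest to UTP14C (0.999) and WAC-AS1 (0.993), GLUL to C12orf60 (0.999) and KANSL2 (0.999), GOT1 to EEFSEC (0.9995) and C1orf56 (0.997), and GOT2 to CCDC50 (0.999) and NACA3P (0.999); the second for GLUD1 was EIF1 (0.998). These are descriptions over 6 points from 3 lines, so a shared difference between the lines is enough for a high value. The number of genes with r above 0.95 ran from 26 for SLC1A1 to 900 for GOT2.

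The other genes of glutamine and glutamate handling were read from 7 lists of 91 genes, of which 50 were tested. After knock-down, 1 of the 50 was higher and 0 were lower at the threshold, against 0.413% and 1.59% of all genes. The 1, SLC38A3, reached the filter only through U251. At an unadjusted p under 0.05, limma listed 3 higher and 10 lower, where 18.3% of all genes were listed in either direction. The median change of the 50 was -0.08, close to the -0.07 of all genes, and 31 of the 50 were below 0, beside 63.8% of all genes. The plot of the pathway lists shows this spread.

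**Figure D5:**
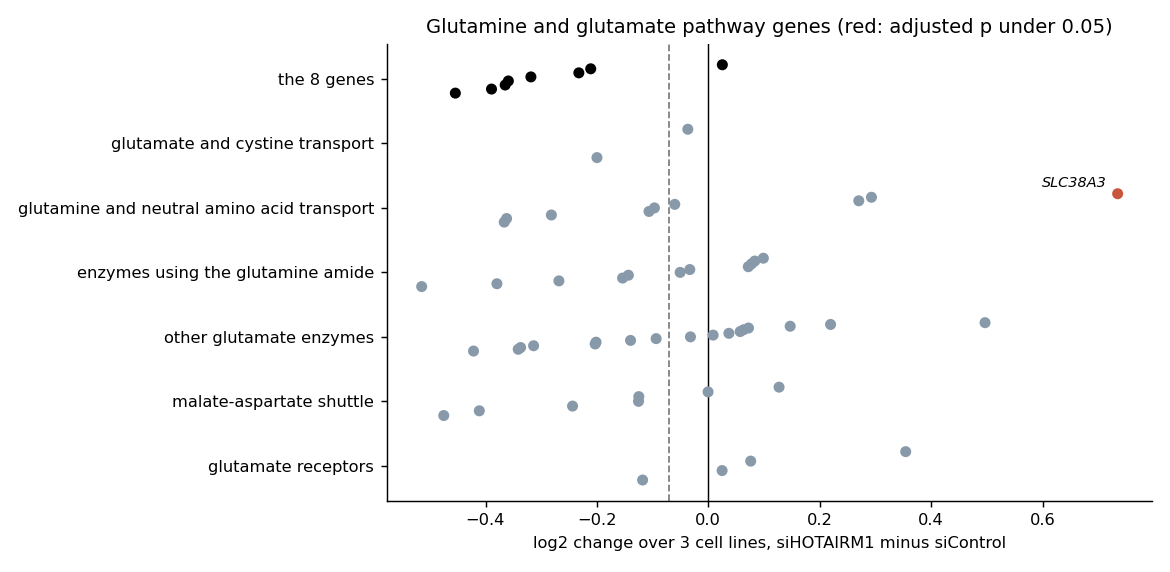
Log2 change over the 3 cell lines (siHOTAIRM1 minus siControl) of the 8 genes (black) and of the tested genes of 6 pathway lists (grey; red where the adjusted p is under 0.05); each point is 1 gene, and the dashed line is the median of all tested genes (-0.07). SLC38A3 (0.73) is the only red point.

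Among 18 genes of glutamine and neutral amino acid transport, 9 were tested and 1, SLC38A3, passed the threshold, but it reached the filter only through U251. SLC38A3 (SNAT3), a glutamine transporter of astrocytes and liver, went from 0.0114 to 0.125 CPM in LN-229, from 0.203 to 0.371 CPM in T98G and from 3.56 to 15.6 CPM in U251 (log2 change 0.73, standard error 0.181, adjusted p = 0.0243, limma). Its siControl level in LN-229 was under 3 reads. The estimate rests on U251, since without that cell line it was 0.17 (adjusted p = 0.693, limma). Without T98G it was 1.01 (adjusted p = 0.581, limma). The adjusted p of SLC38A3 was 0.226 with median centring and 0.271 with rescaling (limma), and 0.649 by a paired t-statistic. In T98G the counting interval of its log2 ratio included 0 (-0.06 to 1.80). SLC38A2, the most abundant gene of this list and the closest paralog of SLC38A1, had a change of -0.11 (273 to 280.3 CPM in LN-229, 867 to 737 CPM in T98G and 405 to 372 CPM in U251). SLC7A5 (LAT1), which trades glutamine for leucine, went from 193 to 219.6 CPM in LN-229, from 60.5 to 39.6 CPM in T98G and from 57.9 to 144 CPM in U251 (0.29, adjusted p = 0.443, limma).

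Glutamate leaves tumor cells mainly in exchange for cystine, through SLC7A11 (xCT) and its partner SLC3A2, the tested genes of a list of 5. SLC7A11 went from 118 to 90.6 CPM in LN-229, from 542 to 412 CPM in T98G and from 204 to 230.4 CPM in U251 (-0.20, adjusted p = 0.560, limma). SLC3A2 had a change of -0.04 (adjusted p = 0.936, limma). Of 3 vesicular glutamate transporters, which load the vesicles of excitatory neurons, none reached the filter.

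Of 12 genes for enzymes that use the amide of glutamine, 11 were tested and none passed the threshold. ASNS, which makes asparagine with the amide nitrogen of glutamine, came nearest, with 33.9 and 21.4 CPM in LN-229, 19.6 and 11.2 CPM in T98G, and 29.1 and 26.3 CPM in U251 (-0.51, adjusted p = 0.0573, limma). GFPT1, the entry enzyme of the hexosamine pathway, had a change of -0.27 (adjusted p = 0.343, limma).

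Of 8 genes of the malate-aspartate shuttle and mitochondrial glutamate carriers, 7 were tested and none passed the threshold. A change below 0 was seen in 6 of the 7 and in 63.8% of all genes. MDH1, the cytosolic malate dehydrogenase that works with GOT1, went from 82.2 to 75.6 CPM in LN-229, from 66.3 to 47.2 CPM in T98G and from 155 to 87.1 CPM in U251 (-0.47, adjusted p = 0.0924, limma). Its mitochondrial counterpart MDH2 had a change of -0.13 (adjusted p = 0.689, limma). Among 21 other glutamate enzymes, 17 were tested and none passed. PSAT1, a glutamate-using enzyme of serine synthesis, went from 10.4 to 16.4 CPM in LN-229, stayed at 17.0 CPM in T98G and went from 17.8 to 33.5 CPM in U251 (0.50, adjusted p = 0.0767, limma). GCLM, a subunit of the enzyme that joins glutamate to cysteine for glutathione, had a change of -0.42 (adjusted p = 0.113, limma). BCAT1, which makes glutamate with amino groups from branched-chain amino acids, had a change of -0.09 (adjusted p = 0.809, limma).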

How the data were processed

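RNA of siControl and siHOTAIRM1 cells of 3 glioblastoma cell lines was sequenced, with 6 libraries in all. Per the study's methods and processing notes, the authors trimmed the reads, aligned them to hg38 with STAR 2.4.1d, passed unaligned reads to Bowtie 2, and assigned reads to Ensembl genes by Expectation-Maximization in Partek Flow. The values deposited by the authors were read as CPM with 0.0001 added, since the header names no unit and the values of a library step by 1 fixed amount whatever the gene. The kit is not known to mark strand, so overlapping genes on opposite strands cannot be told apart.

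Since 70.0 to 77.0% of values came out as whole reads (tolerance 0.02 reads), no count test was used. The 14294 genes averaging 1 CPM or more were fitted on log2(CPM + 1) with limma 3.58.1 (R 4.3.3, mean-variance trend) with cell line and siPOOL as terms, Benjamini-Hochberg adjustment over all of them and a threshold of 0.05. A pseudocount of 1 makes changes of low genes smaller. Libraries of the same cell line deviated together (r = 0.948 to 0.967, different lines -0.505 to -0.467), and the pairing comes from the cell line in the labels. Deviations were taken from the mean of the 3 cell lines in each condition, which by itself makes the values between different lines negative. Intervals of levels are 95% Wilson intervals, and all intervals within a line cover counting error only. Other steps used Python 3.11.15 (scipy 1.17.1, pandas 2.3.3, matplotlib 3.10.9, numpy 2.4.6), and the fit was tested on simulated data.

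Named genes are the 8, HOTAIRM1, for each of them the 2 most correlated genes, and from each pathway list the genes past the threshold, the 2 with the highest mean CPM and, where none passed, the 1 with the smallest p. SLC1A4 and the ratios were chosen after their values were seen. Values of another gene named by the rule are left out. The genes and lists were chosen with earlier results of these data known. All 91 list symbols were matched, and marker lists are given as sums, with the markers under 1 CPM in all libraries and those past the threshold named. Alternatives were no block, a paired statistic per gene, 2 other scalings, another pseudocount, 2 other filters, no trend, and leaving out each cell line.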

Additional observations from a re-analysis of the deposited data

Results flagged for a closer look

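The following genes had changes of opposite sign in 2 cell lines, siHOTAIRM1 minus siControl on the log2(CPM + 1) scale. With 1 library per line and condition, none of these differences was tested, and the share of all genes with such opposite signs was not counted. GLUL had a change of 0.13 in LN-229, against -0.55 in T98G and -0.54 in U251, differences of 0.69 and 0.67 between the lines. GOT1 had one of 0.12 in LN-229, against -0.60 in T98G and -0.16 in U251, differences of 0.72 and 0.29. With libraries rescaled to their listed genes, GOT1 was at 0.085 in LN-229 and 0.094 in U251, so these signs no longer differed. SLC1A5 was lower in T98G (-0.27) and higher in LN-229 (0.11) and U251 (0.23), differences of 0.38 and 0.50.

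Of the other pathway genes, SLC7A5 was lower in T98G (-0.60) and higher in LN-229 (0.18) and U251 (1.30), differences of 0.78 and 1.90. Its partner SLC3A2 showed the same order of signs, with differences of 0.69 for LN-229 and 0.97 for U251 against T98G. BCAT1 did so as well, with differences of 0.66 and 0.73. SLC7A11 was higher in U251 and lower in LN-229 and T98G, with differences of 0.55 and 0.57. SLC38A2 was above 0 in LN-229 and below it in T98G and U251, with differences of 0.27 and 0.16. Over all tested genes the median was 0.01 for LN-229, -0.19 for T98G and -0.03 for U251, and relative to it GLUL was at 0.12, -0.36 and -0.51 and SLC1A5 at 0.10, -0.08 and 0.26 in the same order. Relative to the same medians, SLC38A2 was at 0.02 for LN-229, -0.04 for T98G and -0.09 for U251.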

How the results depend on the processing

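The number of genes past the threshold after knock-down (286) depended on the processing: 0 with no replicate block, so without the pairing by cell line (29 at an unadjusted p under 0.05, limma), 0 with a paired statistic of each gene alone (896 unadjusted), 41 with median centring (36.6% of them higher, against 20.6%), 19 with rescaling (36.8% higher), 683 with a pseudocount of 0.1, 0 with no filter (2567 unadjusted), 607 at a mean of at least 5 CPM, 185 with no trend, and 0 to 270 leaving out 1 cell line, with 0 without T98G (1206 unadjusted) and 149 without U251. Of the 8 genes, 1 passed at a mean of at least 5 CPM (SLC1A1, -0.45, adjusted p = 0.0398, limma, where 10370 genes were tested) and 0 in each of the others. The change of SLC1A5 ranged from -0.078 to 0.17 leaving out 1 cell line (-0.078 without U251 and -0.019 without LN-229). None of the 8 passed with or without the block, so there was no call to lose. At an unadjusted p under 0.05 (limma), 5 of the 8 were listed with the block and 0 without it. Over all 14294 genes, 2622 were listed with the block and 29 without it. HOTAIRM1 lost its call with centring (-0.46, adjusted p = 0.170, limma), with rescaling, with no block, with the paired statistic, with no filter, and without LN-229 or T98G, and its change stayed below 0 in each.

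Between cell lines, T98G against LN-229 had 7 of the 8 genes past the threshold under either scaling, since SLC1A5 (0.49 centred, 0.45 rescaled), GLUD1 (0.47, 0.44) and GOT2 (0.44, 0.40) were added. The share of all genes past the threshold under these scalings was not counted. For U251 against T98G, centring ended the call of SLC1A1 (0.20) and added SLC38A1 (-0.57), and rescaling ended those of SLC1A1 (0.067) and GLUD1 (0.34) and added SLC1A5 (-0.46), SLC38A1 (-0.76) and GOT1 (-0.46). For U251 against LN-229, rescaling ended the calls of SLC1A1 (0.21) and SLC38A1 (0.46) and turned SLC1A5 to -0.018. In the siControl libraries alone, with no test, several differences moved by more than the spread: T98G minus LN-229 to 0.59 in SLC1A5, 1.41 in SLC38A1, 1.48 in GLUL, 0.65 in GLUD1, 1.21 in GOT1 and 0.54 in GOT2, U251 minus LN-229 to 3.72 in SLC1A3, -1.19 in GLUL and 1.33 in GLUD1, and U251 minus T98G to 1.80 in SLC1A3, -0.31 in SLC1A5, -0.71 in SLC38A1 and -0.28 in GOT1. Within U251, 4 of the 8 genes were lower after rescaling, and changes turned for SLC38A1 (0.025 centred, 0.21 rescaled), SLC1A3 (0.16 rescaled) and GOT1 (0.094 rescaled). The share of all genes lower in U251 after rescaling was not counted. The causes were not tested. Depth was no limit for the levels of the 8 genes, all far above 3 reads; the number of libraries limits the tests.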

Other observations

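Of 24 glutamate receptor genes, which turn extracellular glutamate into electrical or G-protein signals, 20 did not reach the filter. GRIK2, a kainate receptor subunit, was at 30.7 and 35.1 CPM in LN-229 and 22.4 and 23.5 CPM in U251 (siControl and siHOTAIRM1), but at 0.348 and 0.193 CPM in T98G. GRM8, a metabotropic receptor of the inhibitory class, was at 13.1 and 14.8 CPM in LN-229 and at most 0.0791 CPM in the other lines. GRIK2 and GRM8 passed the filter only through the cell lines where they are high, so no test between cell lines is given. After knock-down, GRIK2 had a change of 0.02 and GRM8 of 0.08, and GRIN2A, an NMDA receptor subunit, of 0.35 (adjusted p = 0.120, limma).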
